A study of Saccharomyces cerevisiae with 18 samples.

Results

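Yaf9 is a small YEATS-domain protein shared by the histone acetyltransferase NuA4 and the remodeler SWR1. The RNA of *Saccharomyces cerevisiae* cells lacking Yaf9 was set against that of wild type across every gene of the deposited table. The comparison took 6 libraries, 3 of *yaf9*Δ and 3 of wild type (WT), from a series of 18 libraries in 6 strains. In the *yaf9*Δ strain *YAF9* was deleted and ISW1a was intact. In WT both were intact, and ISW1a is the complex of the Isw1 ATPase with Ioc3. The labels gave all strains the BY4742 background and a FLAG epitope tag. Cells grew in YPD, a rich glucose medium, to an OD600 of 0.7 to 0.9, and the replicates were described as independent biological ones. How *YAF9* was removed and how many clones were used is not given in the sources used here. The other 4 strains enter the last comparisons. The double mutant *ioc3*Δ *yaf9*Δ was set against *ioc3*Δ, which lacks Ioc3. Likewise *ioc3*Δ*cHLB yaf9*Δ was set against *ioc3*Δ*cHLB*, in which the HLB domain of Ioc3 is truncated.

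SWR1 exchanges histone H2A for the variant H2A.Z, encoded in yeast by *HTZ1*, mostly in the nucleosomes beside promoters, and NuA4 acetylates H4, H2A and H2A.Z. Loss of H2A.Z deposition in yeast is known for altered induction of regulated promoters and for the spread of silent chromatin from chromosome ends. The design asks what loss of this shared subunit does to RNA levels when ISW1a is intact.

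In several groups of genes known for a shared transcription factor, some members were called in the same direction and others were not called. Upstream stretches of called genes, picked because they hold a match, are shown first. The 4 motifs printed are those of Aft1, the activator of iron uptake (TGCACCC), of Leu3, which controls branched-chain amino acid genes (CCG and CGG separated by 4 bases), of Pho4, the phosphate regulator (CACGTG), and of Msn2 and Msn4, the general stress activators, whose site is called the stress response element (AGGGG). All were searched on both strands in the 500 bases before the start codon. Capitals mark only matches to the motif chosen for each gene. This was Aft1 for *FIT2*, *FET3* and *SIT1* and the stress element for *DDR2* and *CTT1*. It was Leu3 for *LEU1*, *OAC1* and *BAT1*, with Gcn4 added in *BAT1*, and Pho4 for *PHO84* and *PHO5*. Matches to other motifs stay in lower case. Among them are a Leu3 match at the start of the *CTT1* stretch and a stress element after the last capitals of *FIT2*. Matches are sequence descriptions and not measured binding. The stretches are from the R64 reference, the same build as sacCer3, and read 5′ to 3′ on the strand of the gene. For genes that rose in *yaf9*Δ they lie at chrXV:1059180-1059299 on the plus strand (*FIT2*), chrXIII:388542-388601 on the plus strand (*FET3*), chrV:27447-27496 on the plus strand (*SIT1*), chrXV:231916-232015 on the minus strand (*DDR2*) and chrVII:654234-654303 on the plus strand (*CTT1*).
FIT2: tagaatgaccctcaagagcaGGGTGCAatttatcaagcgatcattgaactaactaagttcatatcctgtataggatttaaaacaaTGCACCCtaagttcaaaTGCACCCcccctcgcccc
FET3: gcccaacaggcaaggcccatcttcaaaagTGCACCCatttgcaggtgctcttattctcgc
SIT1: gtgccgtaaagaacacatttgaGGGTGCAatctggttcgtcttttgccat
DDR2: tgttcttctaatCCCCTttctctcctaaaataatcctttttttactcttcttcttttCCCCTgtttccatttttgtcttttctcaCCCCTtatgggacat
CTT1: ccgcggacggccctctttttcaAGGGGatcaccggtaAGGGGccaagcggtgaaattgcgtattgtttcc
For genes that fell they lie at chrVII:478813-478892 on the minus strand (*LEU1*), chrXI:216844-216893 on the plus strand (*OAC1*), chrVIII:517332-517411 on the plus strand (*BAT1*), chrXIII:26181-26260 on the minus strand (*PHO84*) and chrII:431182-431241 on the minus strand (*PHO5*). In *BAT1* the first run of capitals is a match to TGACTCA, the site of the amino acid regulator Gcn4.
LEU1: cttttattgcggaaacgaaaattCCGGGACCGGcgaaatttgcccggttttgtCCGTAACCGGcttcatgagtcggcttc
OAC1: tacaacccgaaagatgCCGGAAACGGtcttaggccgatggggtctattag
BAT1: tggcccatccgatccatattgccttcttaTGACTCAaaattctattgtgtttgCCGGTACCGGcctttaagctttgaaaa
PHO84: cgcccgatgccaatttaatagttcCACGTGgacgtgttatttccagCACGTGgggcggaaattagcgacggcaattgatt
PHO5: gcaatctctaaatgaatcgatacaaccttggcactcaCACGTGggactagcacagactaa

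A full window was available for 5610 tested genes. The Aft1 motif was present in 2.335% of these, the Leu3 motif in 3.137%, the Pho4 motif in 6.328%, the Gcn4 motif in 4.135% and the stress response element in 34.24%. Among genes called higher in *yaf9*Δ, by the thresholds given below, the Aft1 motif was present in 23 of 213 (10.8%) and the stress element in 122 of 213 (57.28%). Among genes called lower, 1 of 204 had the Aft1 motif (0.4902%) and 77 of 204 had the stress element (37.75%). The Leu3 motif stood before 11 of 204 genes called lower (5.392%) and 10 of 213 called higher (4.695%), and the Pho4 motif before 16 of 204 called lower (7.843%) and 18 of 213 called higher (8.451%), so over all calls neither motif separated the directions. Matches to different motifs seldom shared bases: Aft1 and stress element matches overlapped in 9 windows, and Leu3 matches overlapped no other motif.

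The 6 libraries held 7343165 to 8432151 reads on genes, so that 1 read was worth 0.115 to 0.140 CPM. CPM are read counts scaled, in the deposited table, to a common effective library size. The 3 *yaf9*Δ libraries lay closer together than the 3 WT libraries: the median SD over genes was 0.0787 on the log2 scale in *yaf9*Δ and 0.158 in WT. WT replicate 2 stood apart. The chi-square of the read counts of a pair of replicates, divided by its degrees of freedom, was 2.8 to 7.7 between *yaf9*Δ replicates, and 58 and 51.7 between WT replicate 2 and the other WT libraries, against 15.3 between WT replicates 1 and 3. Some of the values that rest on WT replicate 2 are therefore also given without it, and a value given alone may still rest on it.

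The labels were checked in the data. *YAF9* (YNL107W, chromosome XIV, 420098 to 420778, plus strand) had 0.392, 0 and 0 CPM in the *yaf9*Δ libraries, against 29.9, 36.8 and 34.7 CPM in WT. These were 3 reads in all *yaf9*Δ libraries together and 803 in WT, a 269-fold lower level with an exact 95% interval of 91.8 to 1309 that covers counting error only. The annotated neighbours *NOP15*, *YNL108C*, *INP52* and *LEU4* differed by 0.14, 0.06, -0.20 and -0.19 on the log2 scale, and none was called. The label of strain background was not matched. BY4742 is known as a MATalpha strain with *his3*, *leu2*, *lys2* and *ura3* lesions. Here *STE2*, the receptor made by a cells, had 517 to 810 CPM per kb of open reading frame over the 6 libraries, and *STE3*, the receptor made by alpha cells, had 0.462 to 1.19. The pheromone gene *MFA2* of a cells had 4196 to 7941 CPM per kb, and *MF(ALPHA)1* of alpha cells 1.03 to 8.44. Other markers lay closer together, with *STE6* of a cells at 71.4 to 85.7 CPM per kb and *SAG1* of alpha cells at 13.8 to 21.9. *LEU2* had 90.9, 87.6 and 99.5 CPM in *yaf9*Δ, against 116, 197 and 105 in WT, and *LYS2* had 171, 169.6 and 172 CPM in *yaf9*Δ, against 194, 228 and 156 in WT. Both strains therefore carried the RNA of a cells and of *LEU2* and *LYS2*, in all 6 libraries. The levels of *HIS3* and *URA3* are not given here.

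In *yaf9*Δ, RNA of many genes of iron uptake and the stress response was higher than in WT, and RNA of some genes of phosphate uptake, branched-chain amino acid synthesis and nitrogen catabolite control was lower. Called higher were 5 of 7 siderophore uptake genes, 11 of 22 genes of reductive iron uptake and iron use and 12 of 28 stress genes, and called lower were 4 of 14 phosphate uptake genes, 4 of 13 branched-chain genes and 7 of 23 nitrogen genes. Changes are given on the log2 scale as *yaf9*Δ minus WT, with ± for the SE of the fit. A gene was called when its adjusted p was under 0.1 (limma on log2(CPM + 1), Benjamini-Hochberg over 5786 genes) and its change was at least 1.5-fold. Of 5786 genes, 435 were called (7.52%), with 226 higher in *yaf9*Δ (3.91%) and 209 lower (3.61%). Calls of at least 2-fold numbered 73 higher and 52 lower, and of at least 4-fold 6 higher and 5 lower. The libraries of the 2 strains did not overlap for 430 of the 435 called genes and for 2331 of all 5786 genes (40.3%). The 15 largest increases and 15 largest decreases named below were required not to overlap, so their separation is no separate result. A further 570 genes had an adjusted p under 0.1 and a change under 1.5-fold, and the median change over all genes was -0.0054. The number of calls depended on single libraries: without *yaf9*Δ replicate 1 it was 267, with 113 higher and 154 lower, and without *yaf9*Δ replicate 3 the higher calls numbered 143. Without both WT replicate 2 and *yaf9*Δ replicate 1, a setting chosen after seeing the data, 74 genes were called higher and 108 lower.

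**Figure D1:**
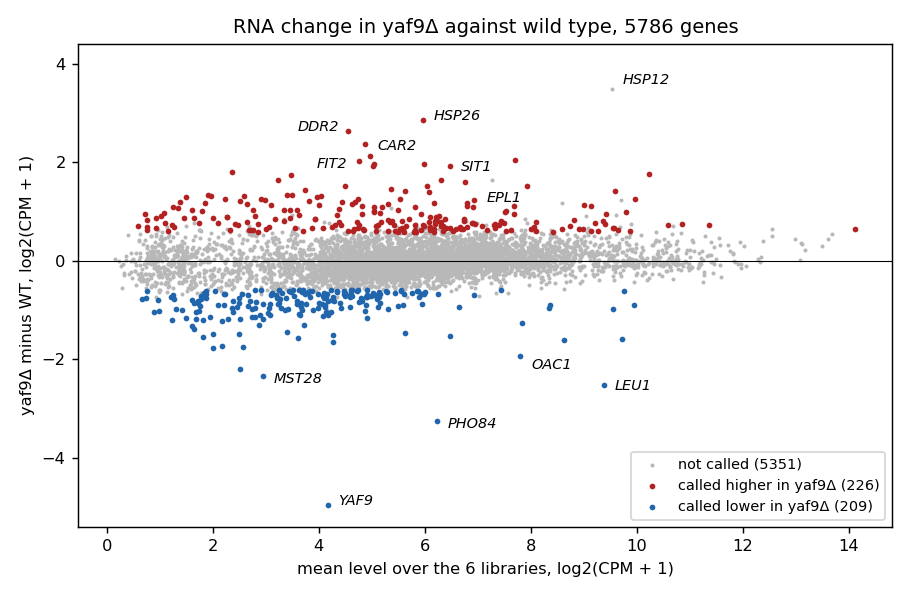
Change of each of 5786 genes (vertical axis, *yaf9*Δ minus WT in log2(CPM + 1)) against its mean level over the 6 libraries (horizontal axis, log2(CPM + 1)), with the 226 genes called higher in red, the 209 called lower in blue and the rest in grey. Iron and stress genes stand at the top, *PHO84*, *LEU1* and *OAC1* at the bottom, and *HSP12*, the highest point, was not called.

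Apart from *YAF9* itself, a few genes of the 2 complexes that share Yaf9 were called. Among the 5786 genes tested, higher calls made up 3.91% and lower calls 3.61%. Whether the 2 complexes held more calls than these shares would give was not tested. Of 13 NuA4 genes, *EPL1*, which anchors the catalytic module, was called higher and *EAF3*, a chromodomain subunit, was called lower. *EPL1* (YFL024C) had 157, 167 and 165 CPM in *yaf9*Δ libraries, against 71.7, 75.7 and 80.3 CPM in WT, a log2 change of 1.09 ± 0.11 (SE, adjusted p = 2.26e-05). *EAF3* had 47.8, 44.2 and 45 CPM in *yaf9*Δ, against 76.6, 72.6 and 72 in WT (-0.68 ± 0.10, adjusted p = 6.53e-04). Both genes were tight within each strain and the strains did not overlap. Of 14 SWR1 complex genes, *SWR1* itself, the ATPase, was called higher. It had 139.7, 136 and 130.4 CPM in *yaf9*Δ, against 85.7, 73.5 and 93.6 in WT (0.68 ± 0.17, adjusted p = 0.0173). *EAF1* (0.45), the NuA4 scaffold, *ACT1* (0.50), actin, and *ARP6* (-0.45), an actin-related SWR1 subunit, passed adjusted p 0.1 with a change under 1.5-fold. *ACT1* reached both thresholds without WT replicate 1 (0.60, adjusted p = 0.0288). The catalytic NuA4 gene *ESA1* had 45.6, 52.4 and 55.4 CPM in *yaf9*Δ, against 45.9, 37.6 and 52.2 in WT, and these overlapped. The remaining SWR1 and NuA4 genes, *SWC3*, *SWC4*, *SWC5*, *SWC7*, *VPS71*, *VPS72*, *ARP4*, *BDF1*, *RVB1*, *RVB2*, *TRA1*, *YNG2*, *EAF5*, *EAF6* and *EAF7*, had log2 differences of -0.33 to 0.18 with *ESA1* included, and none was called.

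The 10 histone genes and the 9 ISWI and CHD1 remodeler genes had no call by limma, edgeR or DESeq2, and 2 genes of each list had an unadjusted p under 0.05. *HTZ1*, the H2A.Z gene, had 137, 123 and 129.5 CPM in *yaf9*Δ libraries, against 120.5, 99.5 and 95 CPM in WT (0.31 ± 0.12, adjusted p = 0.104). All 3 *yaf9*Δ values were above all 3 WT values, but the difference missed the threshold. The core histone genes *HTA1*, *HTA2*, *HTB1*, *HTB2*, *HHT1*, *HHT2*, *HHF1* and *HHF2* and the linker histone gene *HHO1* lay between -0.32 (*HHT1*) and 0.18 (*HTB2*). *IOC3* had 47, 49.4 and 50.7 CPM in *yaf9*Δ, against 59.7, 58.3 and 62.4 in WT (-0.29 ± 0.13, adjusted p = 0.178), and *ISW1* had 97.6, 98.3 and 99.5 CPM in *yaf9*Δ, against 99, 95.8 and 106 in WT. Of the 9 remodeler genes only *DPB4*, a histone-fold subunit, passed adjusted p 0.1, at -0.44 and so under 1.5-fold.

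Genes of iron uptake rose. Yeast takes up iron bound to siderophores through the Arn transporters, helped by the Fit mannoproteins of the cell wall, and free iron through surface reductases and the Fet3 and Ftr1 pair, and Aft1 turns these genes on when iron is short. Of 7 siderophore genes 5 were called higher and none lower, with a median of 1.10 against -0.0054 over all genes tested. *FIT2* (YOR382W) had 48.2, 30.6 and 47.6 CPM in *yaf9*Δ libraries, against 12.7, 5.63 and 11.4 CPM in WT (2.02 ± 0.28, adjusted p = 3.60e-04). *SIT1*, the ferrioxamine transporter, had 147, 137 and 136 CPM in *yaf9*Δ, against 44, 30.3 and 36.1 in WT (1.91 ± 0.44, adjusted p = 0.0135). *ARN1*, the ferrichrome transporter, had 105, 83 and 103 CPM in *yaf9*Δ, against 41.7, 26.1 and 32.8 in WT (1.52 ± 0.18, adjusted p = 8.80e-05). In each of the 3 genes every *yaf9*Δ library was above every WT library. *FIT3* (1.10 ± 0.22) and *ARN2* (0.80 ± 0.19) were also called, while the enterobactin transporter gene *ENB1* (0.26) and *FIT1* (0.06) were not. The Aft1 motif stood before all 7 of these genes, called or not.

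The reductive branch rose with it. Of 22 genes of reductive uptake and iron use 11 were called higher and 1 lower, with a median of 0.55. *FET3*, the multicopper ferroxidase, had 1892, 1804 and 1855 CPM in *yaf9*Δ libraries, against 683, 480.2 and 504 CPM in WT (1.75 ± 0.31, adjusted p = 0.00229). Its partner permease gene *FTR1* had 793, 726 and 789 CPM in *yaf9*Δ, against 375, 368 and 324 in WT (1.11 ± 0.20, adjusted p = 0.00297). *TIS11*, which encodes an RNA-binding protein that directs the decay of mRNAs for iron-using proteins, had 15.1, 10.9 and 13.2 CPM in *yaf9*Δ, against 3.21, 1.92 and 6.21 in WT (1.65 ± 0.40, adjusted p = 0.0175). None of these 3 genes overlapped between the strains. The copper chaperone gene *ATX1* (0.98) and the copper transporter gene *CCC2* (0.92), whose products load Fet3 with copper, rose too. So did the reductase genes *FRE1* (1.52), *FRE4* (1.41), *FRE5* (1.10) and *FRE6* (0.73) and the vacuolar iron transporter genes *FTH1* (0.66) and *SMF3* (0.65). *ISU2*, for a scaffold of iron-sulfur cluster assembly, fell (17.2, 18.8 and 17.3 CPM in *yaf9*Δ, against 29.6, 56.7 and 30.5 CPM in WT). The transcription factor gene *AFT1* had a change of 0.44 (adjusted p = 0.086), under 1.5-fold, and *AFT2* one of 0.19. *FRE2*, *FRE3*, *FET4*, *FET5*, *MRS4*, *CTH1*, *HMX1* and *ISU1* were not called and lay between -0.43 (*FRE3*) and 0.30 (*FET5*). The Aft1 motif stood before 15 of the 22 genes.

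*FRE1* had 368, 305 and 386 CPM in *yaf9*Δ, against 189.8, 69.7 and 135 CPM in WT, where replicate 2 was the lowest library. Without WT replicate 2, 7 of the 22 genes were called higher: *FRE1* (1.13, adjusted p = 0.123), *FRE4* (0.98, adjusted p = 0.161), *FTH1* (0.47) and *SMF3* (0.53, adjusted p = 0.214) were no longer called. *FRE4* also lost its call without *yaf9*Δ replicate 2 (adjusted p = 0.115), *FTH1* without *yaf9*Δ replicate 1 (0.58), and *SMF3* without any single one of WT replicates 2 and 3 and *yaf9*Δ replicates 1, 2 and 3 (adjusted p from 0.135 to 0.214). The 5 siderophore genes kept their calls without each single library. Without both WT replicate 2 and *yaf9*Δ replicate 1, 3 of the 7 siderophore genes and 3 of the 22 genes of the reductive branch were called higher.

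**Figure D2:**
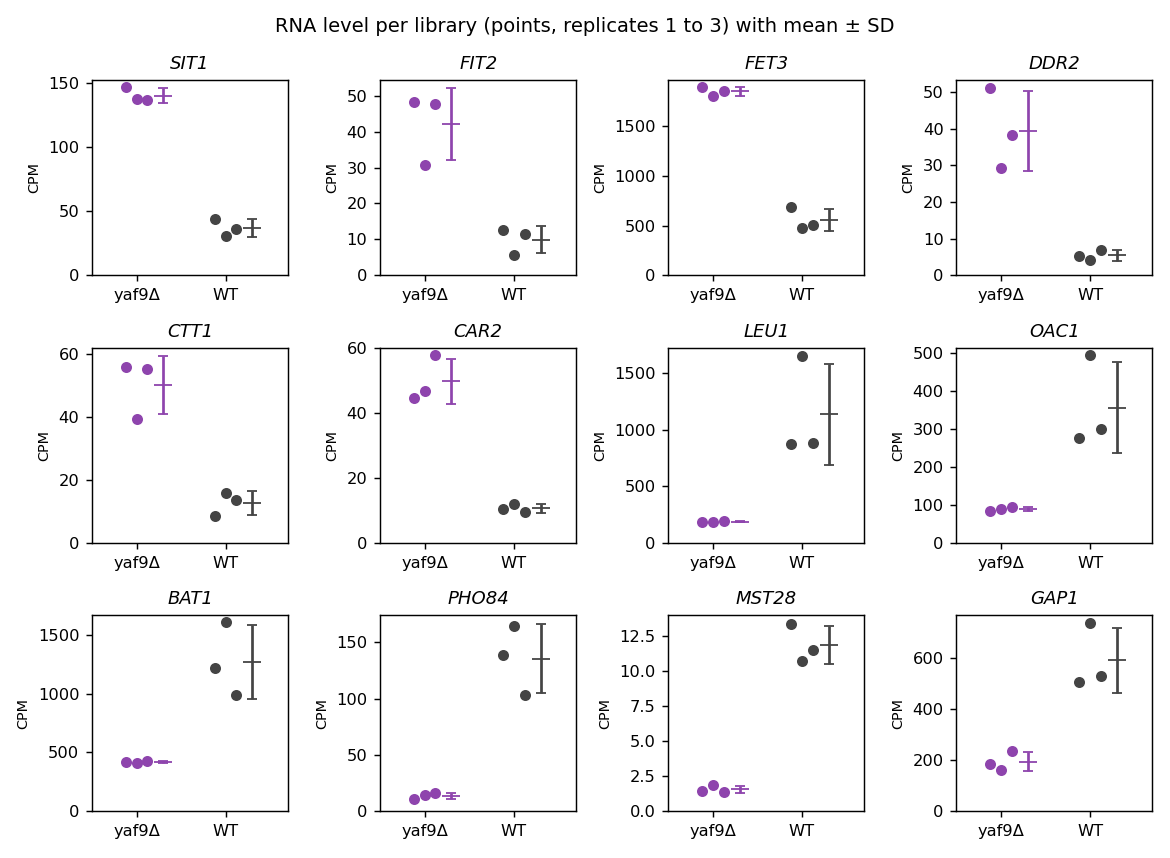
CPM (vertical axes, starting at 0) of 12 genes in the 3 *yaf9*Δ libraries (purple points, left) and the 3 WT libraries (dark grey points, right), with mean and SD beside the points. The strains are separate in each panel, and WT replicate 2 is the highest library for *LEU1* (1649 CPM), *OAC1* (494 CPM) and *GAP1* (739 CPM).

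General stress genes rose, while the heat shock chaperones had no call. Of 28 tested genes of the list for Msn2 and Msn4, 12 were called higher and none lower, with a median of 0.76, and 26 of the 28 had the stress element upstream. Without *yaf9*Δ replicate 1 the higher calls numbered 8, and without WT replicate 2 they numbered 11, as they did by edgeR and by DESeq2. *HSP26*, a small heat shock protein gene, had 151, 69.2 and 106 CPM in *yaf9*Δ libraries, against 17.9, 7.68 and 17.1 CPM in WT (2.87 ± 0.90, adjusted p = 0.0533). *DDR2*, a stress-induced gene, had 51.1, 29.2 and 38.2 CPM in *yaf9*Δ, against 5.3, 4.1 and 6.9 in WT (2.64 ± 0.37, adjusted p = 3.87e-04). *CTT1*, the cytosolic catalase gene, had 55.9, 39.5 and 55.5 CPM in *yaf9*Δ, against 8.65, 15.9 and 13.7 in WT (1.92 ± 0.36, adjusted p = 0.00353). In all 3 genes every *yaf9*Δ library was above every WT library, and *yaf9*Δ replicate 2 was the lowest of its strain. *GAD1*, for glutamate decarboxylase (1.96 ± 0.36), and *MSC1* (1.64 ± 0.30) were the next largest in the list. *HSP12*, the classical target, had 1428, 1042 and 1142 CPM in *yaf9*Δ, against 452, 6.79 and 341 in WT. Its WT values spanned a wide range, with WT replicate 2 far below the others, and it was not called (3.49 ± 1.697, adjusted p = 0.205). Without WT replicate 2 its value was 1.60 (adjusted p = 0.634). Of 22 genes on the list of Hsf1 chaperones, none was called in either direction, and their median was -0.11. At an unadjusted p under 0.05 the count by limma was 4, edgeR called none and DESeq2 called 1.

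Other genes among the 15 largest increases came from several lists or from none. *TDH1*, for the glyceraldehyde-3-phosphate dehydrogenase isozyme of slow-growing cells, had 422, 234 and 349 CPM in *yaf9*Δ libraries, against 91.3, 54.8 and 96.1 CPM in WT (2.04 ± 0.53). *GPH1*, for glycogen phosphorylase, had 119, 79.1 and 99.8 CPM in *yaf9*Δ, against 16.5, 31.8 and 27.8 in WT (1.96 ± 0.52). *ALD4*, for the mitochondrial aldehyde dehydrogenase, had 167, 155 and 161 CPM in *yaf9*Δ, against 40.3, 49.4 and 71.2 in WT (1.61 ± 0.47). All 3 genes kept the strains apart, which the rule that picked these 15 required. *EGO4* (2.37 ± 0.59) and *FMP45* (1.75 ± 0.33) were among these 15 as well. The calls of *HSP26*, *TDH1*, *GPH1* and *ALD4* rested on single libraries. *TDH1* (1.85, adjusted p = 0.103) and *GPH1* (1.82, adjusted p = 0.102) lost theirs without *yaf9*Δ replicate 1. *ALD4* lost its call without *yaf9*Δ replicate 1 (1.58, adjusted p = 0.116) or 3 (1.61, adjusted p = 0.104). *HSP26* did so without WT replicate 2 (2.50, adjusted p = 0.159) or 3 (3.03, adjusted p = 0.105). It also did so without *yaf9*Δ replicate 1 (2.59, adjusted p = 0.175) or 3 (2.85, adjusted p = 0.137).

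Genes of leucine and branched-chain amino acid synthesis fell. In yeast these enzymes sit in mitochondria and cytosol, and Leu3, activated by the pathway intermediate isopropylmalate, controls many of them. Of 13 genes tested 4 were called lower and none higher, with a median of -0.40. *LEU1* (YGL009C, chromosome VII, 476313 to 478652), for isopropylmalate isomerase, an iron-sulfur enzyme, had 182, 190 and 194 CPM in *yaf9*Δ libraries, against 869.6, 1649 and 886 CPM in WT (-2.52 ± 0.21, adjusted p = 2.52e-06). *OAC1*, the mitochondrial carrier of oxaloacetate and isopropylmalate, had 83.2, 90.04 and 93.8 CPM in *yaf9*Δ, against 276, 494 and 299 in WT (-1.94 ± 0.22, adjusted p = 5.48e-05). *BAT1*, the mitochondrial transaminase gene, had 415, 409 and 425 CPM in *yaf9*Δ, against 1218, 1612 and 992 in WT (-1.58 ± 0.18, adjusted p = 6.54e-05). The *yaf9*Δ libraries were nearly level for all 3 genes, whereas WT replicate 2 was the highest WT library. *ILV3*, for dihydroxyacid dehydratase, another iron-sulfur enzyme, had 656, 651 and 706 CPM in *yaf9*Δ, against 1173, 1837 and 915 in WT (-0.90 ± 0.21, adjusted p = 0.0133). All 4 kept their calls without each single library. *ILV2* (-0.40) and *ILV5* (-0.44) passed adjusted p 0.1 under 1.5-fold.

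The rest of the pathway did not pass. *LEU2* (-0.53), *LEU3* (-0.33), *LEU4* (-0.19) and *LEU9* (-0.19) were lower in mean and not called, and *BAT2* (0.05), the cytosolic transaminase gene, *ILV1* (0.08) and *ILV6* (0.29) were not called either. The Leu3 motif stood before 8 of the 13 genes and before 3 of the 4 called, *ILV3* being without one. The Gcn4 motif also stood before 8 of the 13.

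Phosphate uptake and secreted phosphatase genes fell. Pho4 turns on high-affinity phosphate transporters and acid phosphatases when phosphate is scarce, and YPD is a phosphate-rich medium in which most of these genes are weakly expressed. Of 14 uptake and storage genes 4 were called lower and none higher (median -0.30). *PHO84* (YML123C), the high-affinity transporter, had 10.2, 14.1 and 15.8 CPM in *yaf9*Δ libraries, against 139, 164 and 103 CPM in WT (-3.24 ± 0.46, adjusted p = 4.52e-04). *PHM6* had 0.653, 0.867 and 0.618 CPM in *yaf9*Δ, against 4.33, 2.69 and 3.56 in WT (-1.39 ± 0.20), and *GIT1*, the glycerophosphoinositol transporter gene, had 6.92, 5.45 and 5.81 CPM in *yaf9*Δ, against 13, 10.4 and 10.1 in WT (-0.78 ± 0.20). All 3 were separate between the strains. *PHO89*, the sodium-coupled transporter gene, had 0.261, 1.36 and 0.742 CPM in *yaf9*Δ, against 2.09, 1.41 and 2.53 in WT (-0.78 ± 0.27).

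Low-affinity transporter genes *PHO87* (-0.21), *PHO90* (0.04) and *PHO91* (0.20), *PHO86* (0.09), whose product lets Pho84 leave the endoplasmic reticulum, and the polyphosphate genes *VTC1* (0.11), *VTC2* (-0.22), *VTC3* (-0.39), *VTC4* (-0.13) and *VTC5* (-0.38) were not called, *VTC3* passing adjusted p 0.1 under 1.5-fold. *SPL2*, the inhibitor of low-affinity uptake, had 1.31, 1.61 and 0.371 CPM in *yaf9*Δ, against 2.51, 2.82 and 1.49 in WT, and was not called (-0.67 ± 0.30). The Pho4 motif stood before 11 of these 14 genes.

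Of 12 phosphatase and regulator genes, 3 were called lower and none higher, the 3 secreted acid phosphatases that Pho4 controls. *PHO5* (YBR093C) had 8.36, 9.78 and 8.41 CPM in *yaf9*Δ libraries, against 24, 16 and 16.7 CPM in WT (-0.995 ± 0.29, adjusted p = 0.0375). *PHO11* had 0.914, 0.867 and 1.11 CPM in *yaf9*Δ, against 3.49, 3.59 and 3.33 in WT (-1.19 ± 0.30), and *PHO12* had 4.31, 3.47 and 4.08 CPM in *yaf9*Δ, against 11, 5.76 and 7.36 in WT (-0.83 ± 0.27). *PHO11* and *PHO12* are near-identical copies whose reads may have been split. All 3 carried the Pho4 motif. *PHO3*, the constitutive acid phosphatase gene, had 319, 364 and 357 CPM in *yaf9*Δ, against 423, 314 and 316 in WT, and these overlapped. *PHO8* (-0.20), *PHO13* (0.15) and *PHM8* (0.01) were not called. Among regulators, *PHO4* itself (-0.51, adjusted p = 0.0785) and *PHO80* (0.32, adjusted p = 0.0925), the cyclin that restrains Pho4, passed adjusted p 0.1 under 1.5-fold, and *PHO2*, *PHO81* and *PHO85* did not pass.

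The weak phosphate genes depended on single libraries. *PHO5* lost its call without WT replicate 1 (-0.82, adjusted p = 0.108), *yaf9*Δ replicate 1 (0.117) or *yaf9*Δ replicate 3 (0.112). *PHO12* did so without any library but WT replicate 2 (adjusted p from 0.118 to 0.184), and *PHO89* without WT replicates 1 or 3 or *yaf9*Δ replicates 1 or 3 (adjusted p from 0.128 to 0.289). Without WT replicate 1, *yaf9*Δ replicate 1 or *yaf9*Δ replicate 3, 1 of the 12 phosphatase genes was called, against 3 with all libraries. *PHO84*, *PHM6*, *GIT1* and *PHO11* kept their calls without each single library. With a pseudocount of 5 in place of 1, *PHO84* was the 1 uptake gene still called.

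Genes for poor nitrogen sources moved in both directions. Of 23 genes subject to nitrogen catabolite control, 2 were called higher and 7 lower. *CAR2*, the ornithine transaminase gene of arginine breakdown, had 44.7, 46.7 and 57.6 CPM in *yaf9*Δ libraries, against 10.3, 12 and 9.54 CPM in WT (2.12 ± 0.30, adjusted p = 4.64e-04). *CAR1*, the arginase gene, named after its value was seen, had 138, 160.4 and 159 CPM in *yaf9*Δ, against 73.1, 112 and 90.8 in WT (0.74 ± 0.20, adjusted p = 0.0253). Both arginine-degrading genes thus rose, without overlap. *GAP1*, the general amino acid permease gene, had 183, 163 and 236 CPM in *yaf9*Δ, against 505, 739 and 531 in WT (-1.60 ± 0.59, adjusted p = 0.0901). *DAL80*, a GATA repressor gene, had 1.44, 0.867 and 2.97 CPM in *yaf9*Δ, against 3.91, 5.89 and 5.86 in WT (-1.23 ± 0.27). *DAL3*, the ureidoglycolate lyase gene of allantoin breakdown, had 7.71, 10.5 and 11.4 CPM in *yaf9*Δ, against 19.4, 22 and 18.6 in WT (-0.96 ± 0.15, adjusted p = 6.53e-04). *DAL1* (-1.02) was called lower as well, and so were *DAL2* (-0.70), *DAL4* (-0.68) and *DAL5* (-0.66), named after their values were seen. The other 14 were not called, *DAL7* (-0.09), of allantoin use, and *DUR3* (0.38), the urea transporter gene, among them. Without *yaf9*Δ replicate 3, 4 genes of this list were called lower, and *GAP1* lost its call without each of the 6 libraries in turn (adjusted p from 0.116 to 0.223).

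Several of the largest decreases belong to no such group. *MST28* (YAR033W), a membrane protein gene of the DUP240 family, had 1.44, 1.86 and 1.36 CPM in *yaf9*Δ libraries, against 13.4, 10.8 and 11.5 CPM in WT (-2.34 ± 0.14, adjusted p = 3.74e-08). It lies on chromosome I beside *KTD1* and *PRM9* of the same family. *KTD1* had 5.35, 7.8 and 6.43 CPM in *yaf9*Δ, against 21.6, 14.1 and 17.4 in WT (-1.31 ± 0.19), and *PRM9* had 0.653, 0.991 and 0.742 CPM in *yaf9*Δ, against 3.77, 5.76 and 6.09 in WT (-1.77 ± 0.17). The strains were far apart for each of these genes. *AFB1*, which encodes a secreted barrier to a-factor, had 8.75, 8.55 and 7.29 CPM in *yaf9*Δ, against 34.9, 22.7 and 27.6 in WT (-1.66 ± 0.20). *CIN4*, a GTPase gene of tubulin folding, had 4.18, 6.19 and 5.07 CPM in *yaf9*Δ, against 18.1, 15.5 and 17.7 in WT (-1.57 ± 0.16). *IMA5*, an isomaltase gene, had 4.05, 4.95 and 5.07 CPM in *yaf9*Δ, against 14.8, 14.3 and 14.1 in WT (-1.44 ± 0.11). All 6 of these genes kept their calls without each single library.

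Further genes called lower encode a mitochondrial carrier, a mitochondrial aldehyde dehydrogenase and enzymes of cofactor synthesis. They were not counted as a set, and *ALD4*, of another mitochondrial aldehyde dehydrogenase, rose (1.61). *DIC1*, the mitochondrial dicarboxylate carrier gene, had 44.7, 46.6 and 43 CPM in *yaf9*Δ libraries, against 115, 147 and 133 CPM in WT (-1.53 ± 0.13, adjusted p = 2.52e-06). *ALD5*, for a mitochondrial aldehyde dehydrogenase, had 127, 127 and 137 CPM in *yaf9*Δ, against 271, 409 and 285 in WT (-1.27 ± 0.14, adjusted p = 2.45e-05). *BIO2*, the gene of the iron-sulfur enzyme biotin synthase, had 22.3, 21.4 and 23 CPM in *yaf9*Δ, against 39.8, 136 and 46.7 in WT (-1.47 ± 0.33, adjusted p = 0.0116). *BIO2* was highest in WT replicate 2, without which its change was -0.92 and it was still called. *BNA2* (-1.19 ± 0.20), *BNA6* (-0.91 ± 0.19) and *BNA5* (-0.73 ± 0.17) of NAD synthesis from tryptophan were the 3 genes called among 16 of NAD and thiamine synthesis, all lower.

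Ribonucleotide reductase and meiosis genes had a few calls. *HUG1*, the gene of an inhibitor of ribonucleotide reductase, had 16.1, 15.6 and 13.6 CPM in *yaf9*Δ libraries, against 4.47, 6.53 and 5.17 CPM in WT (1.34 ± 0.16, adjusted p = 6.82e-05), and *DIF1*, which directs reductase subunits to the nucleus, was also called (0.60). They were the 2 calls among 10 genes of that enzyme, and *DIF1* fell under 1.5-fold without WT replicate 1 or 3 or *yaf9*Δ replicate 2. *SSP1*, needed for the spore membrane, had 0.392, 1.36 and 1.61 CPM in *yaf9*Δ, against 7.68, 8.71 and 8.62 in WT (-2.19 ± 0.23, adjusted p = 2.41e-05). It led 4 lower calls among 19 meiosis genes, the others being *REC8*, *ZIP1* and *MEI4* at -0.79 to -0.62. Without WT replicate 2, *REC8* (adjusted p = 0.154) and *MEI4* (0.110) were no longer called. *ZIP1* fell under 1.5-fold without *yaf9*Δ replicate 3 (-0.58), *REC8* lost its call without *yaf9*Δ replicate 2 (adjusted p = 0.142), and *MEI4* without *yaf9*Δ replicate 1 (0.117). *IMD2*, the IMP dehydrogenase gene, had 407, 449 and 392 CPM in *yaf9*Δ, against 507, 449.7 and 376 in WT, and *MET16* had 25.9, 21.9 and 26.5 CPM in *yaf9*Δ, against 20.7, 25.6 and 27 in WT; neither was called.

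Calls on the lists of 7 a-specific and 4 alpha-specific genes were all higher, beside 3.91% called higher over all genes. These lists leave out *AFB1*, the gene of a secreted barrier to a-factor described above. It was called lower (-1.66), against the direction of the calls on the lists, and had 22.7 to 34.9 CPM in WT. Of 7 a-specific genes 2 were called higher: *MFA2* (921, 899.8 and 929 CPM in *yaf9*Δ, against 636, 619 and 491 CPM in WT) and the agglutinin subunit gene *AGA2* (126, 149 and 133 CPM in *yaf9*Δ, against 94.4, 60.6 and 74.2 CPM in WT). *MFA2* fell under 1.5-fold without WT replicate 3 (0.55). *STE2* (0.48, adjusted p = 0.0209) passed adjusted p 0.1 under 1.5-fold and reached it without WT replicate 1 (0.61), and *MFA1* (0.26), *STE6* (0.07), *BAR1* (0.30) and *ASG7* (-0.05) were not called. Of 4 alpha-specific genes 2 were called higher at very low levels. *MF(ALPHA)1* had 1.7, 3.22 and 4.2 CPM in *yaf9*Δ, against 0.698, 0.512 and 0.575 in WT (1.29 ± 0.30), and *MF(ALPHA)2* had 1.31, 1.36 and 1.73 CPM in *yaf9*Δ, against 0.419, 0.256 and 0.345 in WT (0.88 ± 0.28). *STE3* (-0.19) and *SAG1* (-0.29) were not called. The call of *MF(ALPHA)2* was lost without any library but WT replicate 1 (adjusted p from 0.118 to 0.174). Among the nutritional markers *HIS3* (0.11), *LYS2* (-0.15), *URA3* (-0.44) and *MET17* (0.93) were not called. *URA3* was called lower without WT replicate 1 (-0.59, adjusted p = 0.0194) and *MET17* higher (1.21, adjusted p = 0.0998).

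The calls among mitochondrial ribosomal protein genes varied with the libraries used. Of 70 genes 8 were called higher and none lower (median 0.41). *MRPS12* had 236, 208 and 206 CPM in *yaf9*Δ libraries, against 169, 79.3 and 139 CPM in WT (0.81 ± 0.22, adjusted p = 0.0317), and *MRPL19* had 86.6, 77 and 83.4 CPM in *yaf9*Δ, against 67.4, 26.1 and 60.2 in WT (0.78 ± 0.26, adjusted p = 0.061). In both genes WT replicate 2 was the lowest of the 6 libraries. Without it none of the 70 was called and their median was 0.070, and without *yaf9*Δ replicate 1 none was called either. The count was 24 without WT replicate 1, 23 without WT replicate 3, 5 without *yaf9*Δ replicate 2 and 2 without *yaf9*Δ replicate 3.

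The other lists are given by their counts, beside 3.91% called higher and 3.61% called lower over all genes. The COS family of membrane proteins encoded near chromosome ends had 4 of 10 genes called higher and none lower (median 0.52). *COS7* had 28.6, 27.4 and 25 CPM in *yaf9*Δ libraries, against 14.8, 12.9 and 10 CPM in WT (1.06 ± 0.18, adjusted p = 0.00172), and *COS1* had 50.9, 49.4 and 48.1 CPM in *yaf9*Δ, against 26.7, 33.8 and 23.2 in WT (0.82 ± 0.19, adjusted p = 0.0143). *COS8* (0.67) and *COS9* (0.60) were the other 2; without WT replicate 3 neither was called (0.63, adjusted p = 0.117, and 0.56), and these genes are similar enough in sequence that reads may have been split among them. *COS8* also lost its call without *yaf9*Δ replicate 1 (adjusted p = 0.137) or 3 (0.108), and *COS9* without WT replicate 1 (0.58). Of 132 cytosolic ribosomal protein genes none was called higher and 2 lower, *RPS22B* (-0.90) and *RPS21A* (-0.62), and neither was called without WT replicate 2, *yaf9*Δ replicate 1 or *yaf9*Δ replicate 3. *RPS21A* also fell under 1.5-fold without WT replicate 1 (-0.56). Cell wall mannoprotein genes had 4 of 15 called higher and none lower, pheromone response genes 4 of 20 higher and 1 lower, glycolysis 3 of 19 higher and 1 lower, and ATP synthase 3 of 17 higher and none lower. Without *yaf9*Δ replicate 1 the higher calls in these 4 lists numbered 0, 1, 0 and 1, and without WT replicate 2 the pheromone list had 1.

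No gene was called in either direction among 62 of ribosome biogenesis, 35 of the proteasome, 28 of the nuclear pore, 20 of respiratory complexes III and IV, 13 of purine synthesis, 8 of arginine synthesis, 15 of lysine and histidine synthesis, 14 of aromatic amino acid synthesis, 12 of one-carbon metabolism, 10 multidrug exporters and 8 of the SAS complex and silencing. These are counts from limma. By edgeR and DESeq2 none of these genes was called either, and 1 to 5 genes of each list had an unadjusted p under 0.05. Without WT replicate 2, 1 arginine gene and 1 gene of complexes III and IV were called higher. A gene that missed the thresholds is not thereby shown to be unchanged. The sulfur and methionine list had 2 of 27 called higher and 2 lower, but 1 and 1 without WT replicate 2 and 0 and 1 without *yaf9*Δ replicate 1. Zinc and copper uptake, glycogen and trehalose, hexose transport, galactose use, glucose-repressed genes, the TCA cycle, ergosterol synthesis, phospholipid and fatty acid synthesis and the PAU genes had at most 3 calls in either direction. These counts rested on single libraries. Without WT replicate 2, the glycogen and trehalose list had 4 of 18 genes called higher in place of 1 (median 0.41, against 0.11 with all libraries), phospholipid and fatty acid synthesis had 2 of 14 in place of 1, glucose-repressed genes had 2 of 21 in place of 3, and the single calls of the TCA cycle, galactose use and the PAU genes and the lower call of hexose transport were absent. Without *yaf9*Δ replicate 1, no gene of glycogen and trehalose, the TCA cycle, phospholipid and fatty acid synthesis or the glucose-repressed list was called higher, and no PAU gene was called lower.

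**Figure D3:**
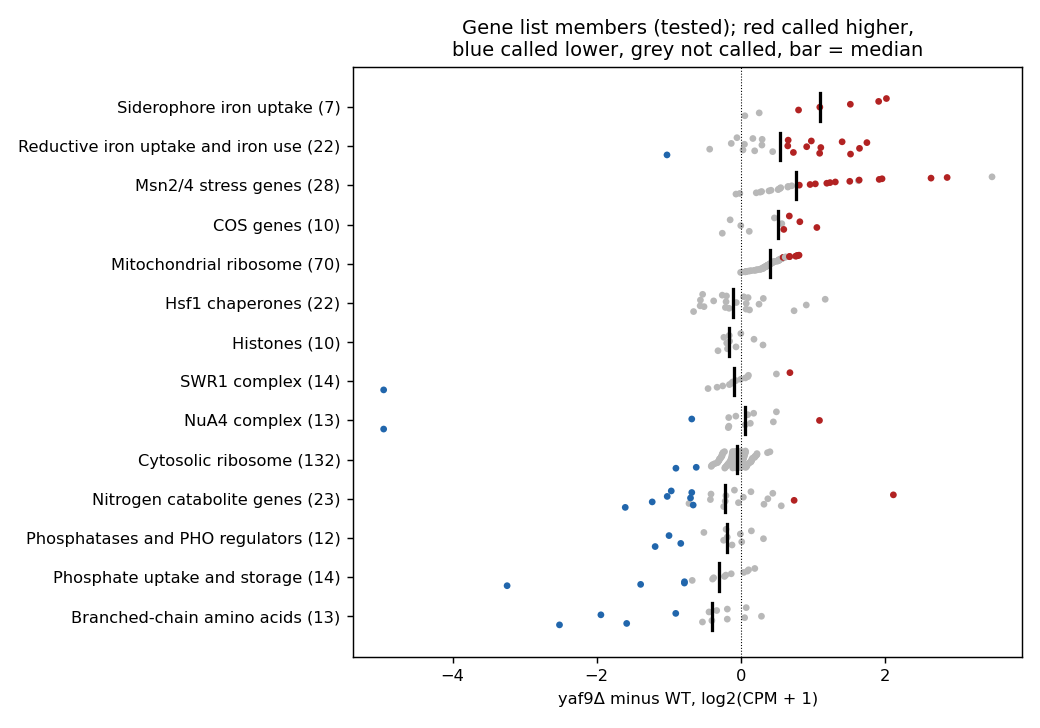
Change of each tested member (points, horizontal axis, *yaf9*Δ minus WT in log2(CPM + 1)) of 14 gene lists (rows, number tested in brackets), with the median as a black bar; red was called higher, blue lower. The siderophore and reductive iron lists lie to the right (medians 1.10 and 0.55) and the phosphate and branched-chain lists reach far to the left (*PHO84* -3.24, *LEU1* -2.52), while *YAF9* is the leftmost point of the SWR1 and NuA4 rows.

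Lower calls were more frequent near chromosome ends. Of 280 tested genes within 30 kb of an end 43 were called lower (15.4%) and 20 higher (7.14%), and of 5330 genes farther away 161 were called lower (3.02%) and 193 higher (3.62%). By distance, the share called lower was 16.4% of 55 genes at 0 to 10 kb, 19.6% of 97 at 10 to 20 kb, 11.7% of 128 at 20 to 30 kb, 6.12% of 294 at 30 to 50 kb, 2.88% of 765 at 50 to 100 kb and 2.83% of 4271 beyond 100 kb. The share called higher was 7.27%, 6.19%, 7.81%, 6.46%, 3.53% and 3.44% in the same bins. Both shares were thus larger near the ends, and the lower calls more so. The median change within 30 kb was -0.085. Genes near the ends were also weakly expressed, with a median WT level of 18.01 CPM within 30 kb and 57.4 CPM beyond, and the part of the level in these shares was not tested. When only genes with at least 5 CPM in 3 of the 6 libraries were kept, 14.4% of 195 genes within 30 kb and 2.69% of 5019 beyond were called lower. With a pseudocount of 5 the shares were 6.07% within and 1.71% beyond, and without both WT replicate 2 and *yaf9*Δ replicate 1 they were 6.07% and 1.67%.

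The called genes nearest to an end were *YBL113C* at 279 bp, *YHL050C* at 444 bp and *COS7* at 1801 bp. *YBL113C* had 24.9, 24.5 and 24.1 CPM in *yaf9*Δ libraries, against 38.9, 37.5 and 40.4 CPM in WT (-0.65 ± 0.16), and *YHL050C* had 12.3, 13.9 and 12.9 CPM in *yaf9*Δ, against 24.3, 22.8 and 22.7 in WT (-0.79 ± 0.13). Both are parts of repeated end sequences, so their reads may come from several copies. Some of the genes described above lie within 30 kb of an end, so these calls and those of the groups above share genes. The lowest and highest changes there were those of *PHO84* (-3.24) and *SIT1* (1.91). *DAL3* (24271 bp), *BNA6* (24995 bp) and *BIO2* (26000 bp) fell, and *ARN1* (19087 bp) rose. *PHO11* (3355 bp) and *PHO12* (9141 bp) fell, and *ARN2* (8350 bp), *COS8* (6400 bp) and *COS1* (8329 bp) rose. Further genes of the zone, chosen after their values were seen, were *SEO1*, a permease gene (-1.32), *GEX2*, a glutathione exchanger gene (-1.19), and *SNZ3* and *SNZ2* of vitamin B6 synthesis. *SNZ3* had 0.784, 0.867 and 0.742 CPM in *yaf9*Δ, against 4.89, 3.84 and 4.02 in WT (-1.54 ± 0.25), and *SNZ2* had 1.57, 1.98 and 2.35 CPM in *yaf9*Δ, against 6.28, 4.87 and 6.09 in WT (-1.19 ± 0.24); they are near-identical copies.

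**Figure D4:**
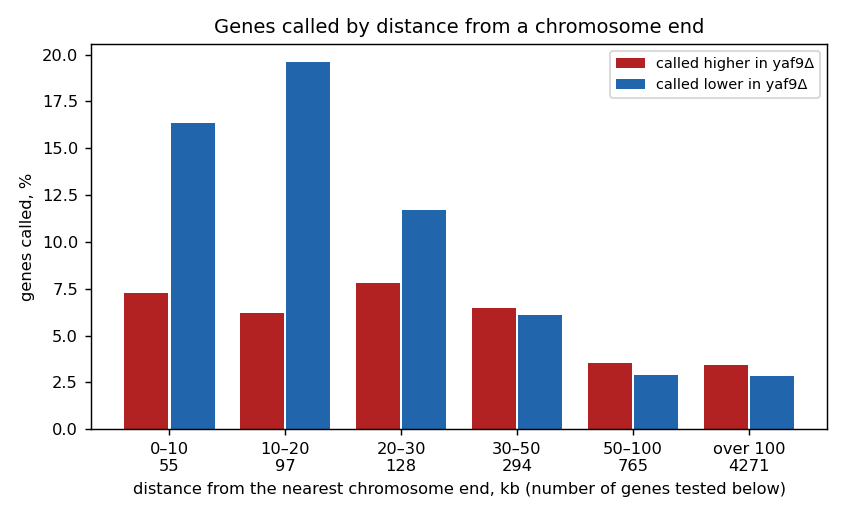
Percent of tested genes called higher (red) and lower (blue) in *yaf9*Δ against WT, by distance of the gene from the nearest chromosome end in kb, with the number of genes tested under each bin. Lower calls stand at 16.4%, 19.6% and 11.7% in the first 3 bins and at 2.83% beyond 100 kb.

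The effect of losing Yaf9 was also measured in cells with altered Ioc3. These libraries gave none of the *yaf9*Δ and WT means, but they share the fit's estimate of the spread with that comparison. In cells with the truncated HLB domain, 516 genes were called in *ioc3*Δ*cHLB yaf9*Δ against *ioc3*Δ*cHLB* (8.92%), 223 higher (3.85%) and 293 lower (5.06%). In cells without Ioc3, 778 were called in *ioc3*Δ *yaf9*Δ against *ioc3*Δ (13.4%), 202 higher (3.49%) and 576 lower (9.96%). Of the genes that fell in *yaf9*Δ against WT, 131 also fell with the truncated HLB (62.7% of the 209 and 44.7% of the 293) and 153 also fell without Ioc3 (73.2% of the 209 and 26.6% of the 576). Of those that rose, 88 also rose with the truncated HLB (38.9% of the 226 and 39.5% of the 223) and 26 also rose without Ioc3 (11.5% of the 226 and 12.9% of the 202), where 12 were called lower. The median change of the 226 genes was 0.08 without Ioc3 and 0.56 with the truncated HLB, against 0.80 in the strain pair that selected them. For the 209 genes it was -0.90 without Ioc3 and -0.71 with the truncated HLB, against -0.82.

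The difference between these effects was tested as an interaction in the same fit. The *YAF9* deletion effect in *ioc3*Δ differed from that in WT for 543 genes (9.38%), with 189 more positive (3.27%) and 354 more negative (6.12%), and the effect in *ioc3*Δ*cHLB* differed for 7 genes (0.121%). At an adjusted p under 0.1 with no fold threshold the 2 counts were 752 and 7. The 7 genes were *FIT2*, *TKL2*, *ALD3*, *YNL034W*, *DAN1*, *ATP17* and *IMA5*, named because they were so few. Of the genes called against WT, 97 of the 226 that rose and 27 of the 209 that fell had an effect that differed in *ioc3*Δ. These counts share the *yaf9*Δ and WT libraries with the calls that selected the genes.

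The groups described above parted in this comparison. *LEU1* had a log2 difference of 0.21 in *ioc3*Δ and -2.63 in *ioc3*Δ*cHLB*, against -2.52 with Ioc3 intact, and its effect in *ioc3*Δ differed from that in WT by 2.73 ± 0.30 (adjusted p = 2.52e-04). Its level was already low in *ioc3*Δ: the mean was 175 CPM in *ioc3*Δ *yaf9*Δ and 150.2 CPM in *ioc3*Δ, against 189 CPM in *yaf9*Δ and 1135 CPM in WT. The same held for *OAC1*, with a mean of 62.2 CPM in *ioc3*Δ *yaf9*Δ and 46.7 CPM in *ioc3*Δ, and for *BAT1*, with 338 CPM in *ioc3*Δ *yaf9*Δ and 287 CPM in *ioc3*Δ. In this group 5 of 13 genes had an effect that differed in *ioc3*Δ, all in the positive direction, and none differed with the truncated HLB.

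Many iron and stress genes had a more negative effect of losing Yaf9 in *ioc3*Δ than in WT, beside 6.12% of all genes. The median of the 7 siderophore genes was -0.52 in *ioc3*Δ and 0.31 in *ioc3*Δ*cHLB*, against 1.10 in WT, and 6 of the 7 had a more negative effect in *ioc3*Δ by the interaction test. Of the 22 genes of reductive uptake and iron use, 7 had a more negative and 1 a more positive effect in *ioc3*Δ, and their median was 0.06 in *ioc3*Δ and 0.40 in *ioc3*Δ*cHLB*, against 0.55 in WT. *SIT1* had a log2 difference of 0.02 in *ioc3*Δ and 2.04 in *ioc3*Δ*cHLB*, against 1.91 in WT. *FIT2* had a log2 difference of -1.68 in *ioc3*Δ and -0.27 in *ioc3*Δ*cHLB*, against 2.02 in WT. The difference between *FIT2* and *SIT1* in the strain with the truncated HLB was not tested. The median of the 28 genes of Msn2 and Msn4 was -0.62 in *ioc3*Δ and 0.03 in *ioc3*Δ*cHLB*, against 0.76 in WT, and 16 of them had a more negative effect in *ioc3*Δ.

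Other genes kept their direction. Of the 14 phosphate uptake genes 8 were called lower in *ioc3*Δ and 6 in *ioc3*Δ*cHLB*, against 4 in WT, and 6 had a more negative effect in *ioc3*Δ, *PHO84* not among them. Over all genes the lower calls were also more in *ioc3*Δ (9.96%) and *ioc3*Δ*cHLB* (5.06%) than in WT (3.61%), and 6.12% had a more negative effect in *ioc3*Δ. *PHO84* had a log2 difference of -2.71 in *ioc3*Δ and -3.71 in *ioc3*Δ*cHLB*, against -3.24 in WT. Its starting level differed, with a mean of 195 CPM in *ioc3*Δ *yaf9*Δ and 1081 CPM in *ioc3*Δ, against 13.4 CPM in *yaf9*Δ and 136 CPM in WT. *MST28* had a log2 difference of -1.84 in *ioc3*Δ and -1.57 in *ioc3*Δ*cHLB*, against -2.34 in WT. For *EPL1* the 3 values were 1.36 in *ioc3*Δ and 1.19 in *ioc3*Δ*cHLB*, against 1.09 in WT, and for *CAR2* they were 1.46, 1.89 and 2.12 in the same order. The interaction tests of these 4 genes did not pass (adjusted p in *ioc3*Δ 0.664 for *PHO84*, 0.136 for *MST28*, 0.321 for *EPL1* and 0.367 for *CAR2*), which does not show that the effects were equal. Genes of ribosome biogenesis were called on loss of Yaf9 in *ioc3*Δ only. There 41 of 62 were called higher in *ioc3*Δ *yaf9*Δ than in *ioc3*Δ, beside 3.49% of all genes. None was called higher in *ioc3*Δ*cHLB*, and none in WT. By the interaction test 35 of the 62 had a more positive effect in *ioc3*Δ, beside 3.27% of all genes. Near the chromosome ends 84 genes were called lower in *ioc3*Δ and 47 in *ioc3*Δ*cHLB*, against 43 in WT, of 280 tested, beside the shares of 9.96%, 5.06% and 3.61% over all genes in these 3 comparisons. By the interaction test 36 of the 280 had a more negative effect in *ioc3*Δ and 6 a more positive one.

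**Figure D5:**
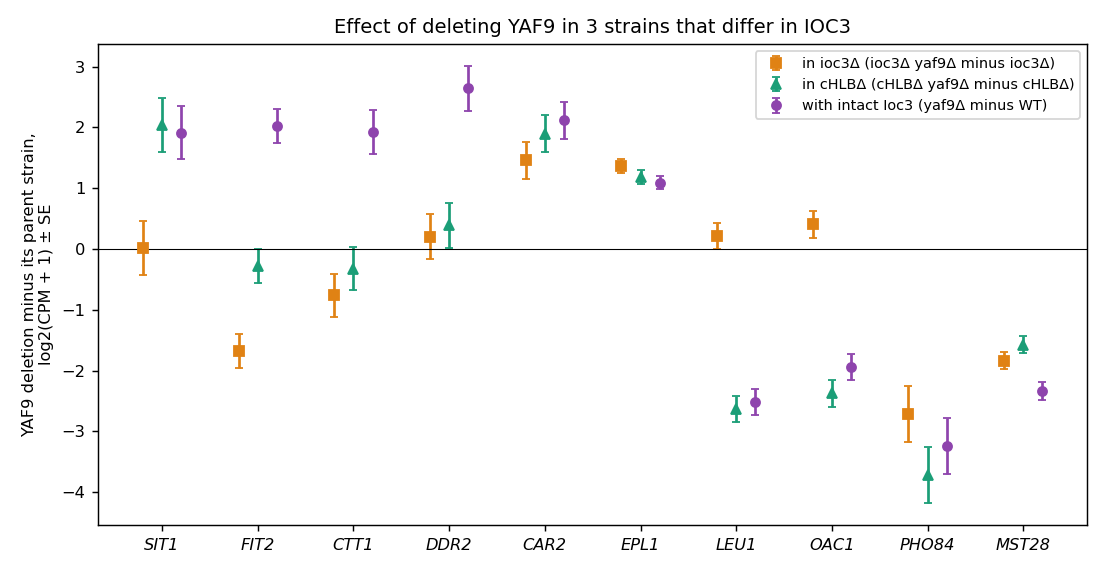
Effect of deleting *YAF9* (vertical axis, log2(CPM + 1), with SE bars) on 10 genes in *ioc3*Δ (orange squares), *ioc3*Δ*cHLB* (green triangles) and with Ioc3 intact (purple circles). *LEU1* and *OAC1* are near 0.21 and 0.41 in *ioc3*Δ and negative in the other 2 pairs, while *CAR2*, *EPL1*, *PHO84* and *MST28* keep their direction in all 3.

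Set directly against *ioc3*Δ, *yaf9*Δ differed at 1088 genes (18.8%), with 404 higher (6.98%) and 684 lower (11.8%) in *yaf9*Δ. *PHO84* averaged 13.4 CPM in *yaf9*Δ and 1081 CPM in *ioc3*Δ (-6.23 ± 0.46, adjusted p = 1.58e-07), and *PHO5* averaged 8.85 CPM in *yaf9*Δ and 147 CPM in *ioc3*Δ (-3.81 ± 0.29, adjusted p = 1.67e-07). Both of these phosphate genes thus stood far apart between the single mutants. The other genes of the phosphate lists are not given for this comparison. *FET3* averaged 1851 CPM in *yaf9*Δ and 495 CPM in *ioc3*Δ (1.93 ± 0.31), and *EPL1* averaged 163 CPM in *yaf9*Δ and 65.5 CPM in *ioc3*Δ (1.31 ± 0.11). *LEU1* averaged 189 CPM in *yaf9*Δ and 150.2 CPM in *ioc3*Δ, and this difference was not called (0.33 ± 0.21, adjusted p = 0.249).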

How the data were processed

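RNA was extracted with hot acid phenol from 3 cultures per strain and sequenced as stranded, paired-end mRNA libraries. Per the submitters' processing notes, reads were aligned to sacCer3 with TopHat2 2.0.10 and Bowtie2 2.0, counted per gene with HTSeq, and processed in R 3.1.0 with edgeR 3.6.2 and limma 3.20.4. The deposited table gives a signal per gene and library: CPM scaled by the authors to an effective library size, 0.958 to 1.09 times the total. The deposited values are whole multiples of what 1 read is worth, so the read counts behind them were recovered from the deposited table, with 100% of values whole within 0.01 read. Totals were 7343165 to 8432151 reads in the 6 libraries. A level of 0 allows up to 3 reads, or 0.345 to 0.419 CPM, counting error only.

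The table held 5830 genes, of which 5634 were matched to the R64 annotation, and 4 lines were empty and not used here. Genes with at least 1 CPM in 3 of the 18 libraries were tested (5786). The fit was limma 3.58.1 in R 4.3.3 on log2(CPM + 1), its prior variance following expression level, over all 18 libraries and 6 strain means, without a replicate block. A log2 change on this scale understates the change of low genes. Calls needed a Benjamini-Hochberg adjusted p under 0.1 and at least 1.5-fold. Interactions were contrasts of the same fit. Alternatives were another pseudocount, filter, scaling, threshold or set of libraries, a replicate block, array weights, and edgeR 4.0.16 (quasi-likelihood) and DESeq2 1.42.0 on the recovered reads. The scripts were tested on simulated data.

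The genes and gene lists were chosen with earlier results of these data known. Genes named were fixed genes of interest, the 15 largest increases and 15 largest decreases among called genes of at least 5 CPM on average whose strains did not overlap, all members of the chromatin, branched-chain, phosphate, iron and mating lists, up to 5 called members of other lists, and the 3 called genes nearest to a chromosome end. Upstream windows of 500 bases before the start codon were read from the R64 genome in place of a promoter table, which was not used here.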

Additional observations from a re-analysis of the deposited data

Results flagged for a closer look

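The effect of deleting *YAF9* differed between *ioc3*Δ and WT, by the interaction term of the limma fit (adjusted p under 0.1 and at least 1.5-fold), for 18 of the genes named as the largest changes. The values are the effect in *ioc3*Δ minus the effect in WT on the log2 scale, and both effects used 3 libraries per strain. Among genes that fell in *yaf9*Δ against WT the difference was 2.73 for *LEU1*, 2.35 for *OAC1*, 1.83 for *BAT1*, 1.39 for *ALD5*, 1.31 for *BIO2* and 1.04 for *DIC1*. Among iron genes that rose it was -3.71 for *FIT2*, -2.48 for *TIS11*, -1.89 for *SIT1* and -1.36 for *FET3*. Among the other genes that rose it was -3.06 for *EGO4*, -2.71 for *GAD1*, -2.70 for *TDH1*, -2.68 for *CTT1*, -2.56 for *MSC1*, -2.44 for *DDR2*, -2.40 for *GPH1* and -1.76 for *FMP45*. The genes were picked for a large effect in WT, and the difference uses the same WT and *yaf9*Δ libraries, so the choice and the comparison are not independent.

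Between *ioc3*Δ*cHLB* and WT, 2 of these genes differed by the same test: *FIT2* by -2.30 and *IMA5* by 0.83.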

How the results depend on the processing

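No named gene changed sign while called under any alternative run. Of 111 named genes called, 52 kept the call under every alternative and 50 lost it without 1 library; *ACT1*, *HSP12*, *MET17*, *SPL2*, *STE2* and *URA3* were not called with all libraries and were called under at least 1 alternative. With a pseudocount of 5 the calls numbered 271, with 108 lower, against 435 and 209. Leaving out single libraries gave 267 to 526 calls, 113 to 307 higher and 154 to 219 lower. Without both WT replicate 2 and *yaf9*Δ replicate 1, chosen after seeing the data, there were 182 calls, 74 higher and 108 lower. The larger pseudocount shrinks the changes of low genes by construction; for the other settings the cause was not tested. edgeR called 229 higher and 235 lower, and DESeq2 236 and 238.

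With a limit of 50 kb in place of 30 kb, 10.6% of genes near chromosome ends were called lower, against 15.4%. Replicate numbers did not pair the libraries: same-numbered *yaf9*Δ and WT libraries deviated with correlations of 0.112, -0.0214 and -0.0598. With a replicate block the calls were 237 higher and 202 lower over 18 libraries, and 275 and 225 over the 6 alone.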

Other observations

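The following genes were chosen after their values were seen and are given as values. *GPX1* and *GTT1* are on the list for Msn2 and Msn4 counted above, and the others come from no list described here. *AHP1*, for an alkyl hydroperoxide reductase, had 1282, 1019 and 1048 CPM in *yaf9*Δ libraries, against 532, 289.8 and 470.5 CPM in WT (1.41 ± 0.46, limma adjusted p = 0.0591). *TRX2*, for a cytosolic thioredoxin, had 307, 242 and 256 CPM in *yaf9*Δ, against 164, 118 and 134 in WT (0.95 ± 0.26, adjusted p = 0.0302). *OYE3*, for an NADPH oxidoreductase, had 18.9, 16.7 and 18.8 CPM in *yaf9*Δ, against 4.61, 11.5 and 4.02 in WT (1.44 ± 0.26, adjusted p = 0.00308). The peroxiredoxin genes *TSA2* (1.29) and *PRX1* (1.03) and *GRE2* (1.18) were also called higher, whereas *GPX1* (0.29), for a peroxidase, and *GTT1* (0.66), for a glutathione transferase, were not called.

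Neighbouring genes that were called in the same direction formed 6 runs of at least 3 genes. The 4 neighbours *KTD1*, *DFP2*, *PRM9* and *MST28* on chromosome I (184892 to 188811) were lower in *yaf9*Δ than in WT, as were *DAL1*, *DAL4*, *DAL2* and *DCG1* on chromosome IX (406260 to 412770). *FIT2*, *FIT3* and *FRE5* on chromosome XV (1059530 to 1063650) were higher, as were *GAD1*, *GTO3* and *HOR7* on chromosome XIII (770801 to 774931). The other 2 runs, both lower, were *OCT1*, *RCI50* and *RMA1* on chromosome XI and *YOL160W*, *YOL159C-A* and *CSS3* on chromosome XV. How many such runs unrelated calls would give was not tested.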
